A study of Drosophila melanogaster with 12 samples.

Results

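Sex differences in gene expression were described here in adult *Drosophila melanogaster* that overexpressed *bmm* (*brummer*), the main triglyceride lipase of the fly fat body. The comparison set the 3 libraries of male *bmm* overexpression flies against the 3 libraries of female *bmm* overexpression flies, as their labels name them, which were 6 of the 12 libraries of the series. The other 6 libraries came from male and female controls and gave the same sex comparison without overexpression. Each library was made from mRNA of 20 whole adult flies, and the study's stated comparison was that of genotypes within each sex, so the contrast of the sexes is one that its design implies.

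The *bmm* overexpression flies of both sexes (here *bmm* males and *bmm* females) carried *da-GAL4* and *UAS-bmm*: the *daughterless* driver is active throughout the body and supplies GAL4, a yeast transcription factor that drives the transgene. Control males and control females carried *da-GAL4* without *UAS-bmm*, so the insertion itself and the overexpression cannot be told apart. All 4 groups shared the *w1118* background, food of sugar and yeast, 25 °C and 48 hours together after emergence, during which they could mate, before the sexes were separated. The age at freezing is not given in the sources used here. Nothing says whether the 3 libraries of a group came from separate crosses, so the p-values measure the spread between these samples.

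The sexes of the fly differ most in the germ line and the reproductive organs. The fat body and the ovary of females make yolk proteins, follicle cells make the vitelline membrane and the chorion of the egg, and nurse cells load the egg with maternal RNA, while the testis makes sperm with many genes of its own and the accessory gland makes the proteins of the seminal fluid. Males also raise transcription of their single X chromosome with a complex of MSL proteins and *roX* RNA. In whole flies, fewer cells of a type and less RNA per cell cannot be told apart, and a tissue that makes up much of 1 sex lowers the share of all other tissues in that sex.

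Levels are given in CPM, counts scaled to a common library size by the submitters. Fold changes are male over female on the log2 scale from edgeR's quasi-likelihood F test, and a gene was called at an adjusted p under 0.05 with an absolute log2 fold change over 1. The total count was 27756412 to 31554377 in *bmm* males and 20068187 to 34514434 in *bmm* females, and the limit of detection used here, 3 counts, came to 0.0907 to 0.101 CPM in *bmm* males and 0.0985 to 0.156 CPM in *bmm* females. Between 15350 and 15495 genes had counts in a *bmm* male library, against 12396 to 13051 in a *bmm* female library. Replicates differed beyond counting noise in every group, so none was a repeated library.

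More genes were higher in *bmm* males than were lower. Of 13535 genes tested, 5830 (43.1%) were called higher and 3113 (23%) were called lower, and 2586 of the higher genes but only 207 of the lower genes had an absolute log2 fold change over 5. At an adjusted p under 0.05 alone, 92% of the genes tested passed, 7118 of them higher and 5329 lower. The 3 male and 3 female libraries did not overlap for 8920 of the 8943 genes called, of which 5931 reached 10 CPM in the higher sex. The median log2 fold change over all genes was 0.42, so a gene at 0 was low in *bmm* males relative to the middle gene.

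The balance of the directions depended on the scale. With libraries scaled so that a list of neuronal genes had a median difference of 0, the median of all genes was −1.81, a shift of −2.23, and 2947 genes were higher and 8053 were lower in *bmm* males. Male over female fold changes with overexpression between 0 and 2.23 below are therefore negative under the neuronal scaling, while larger and negative ones keep their direction. The differences between genotypes, given further below, do not take this shift. Under the neuronal scaling 16 positive and 58 negative differences passed both thresholds, against 13 and 156 without it. DESeq2's size factors moved the median by 0.11, library size alone by 0.19, and a filter of at least 10 CPM in 3 libraries by −0.39. The plot of gene levels shows most genes in a band near the diagonal, and separate groups of genes near absence in 1 sex.

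**Figure D1:**
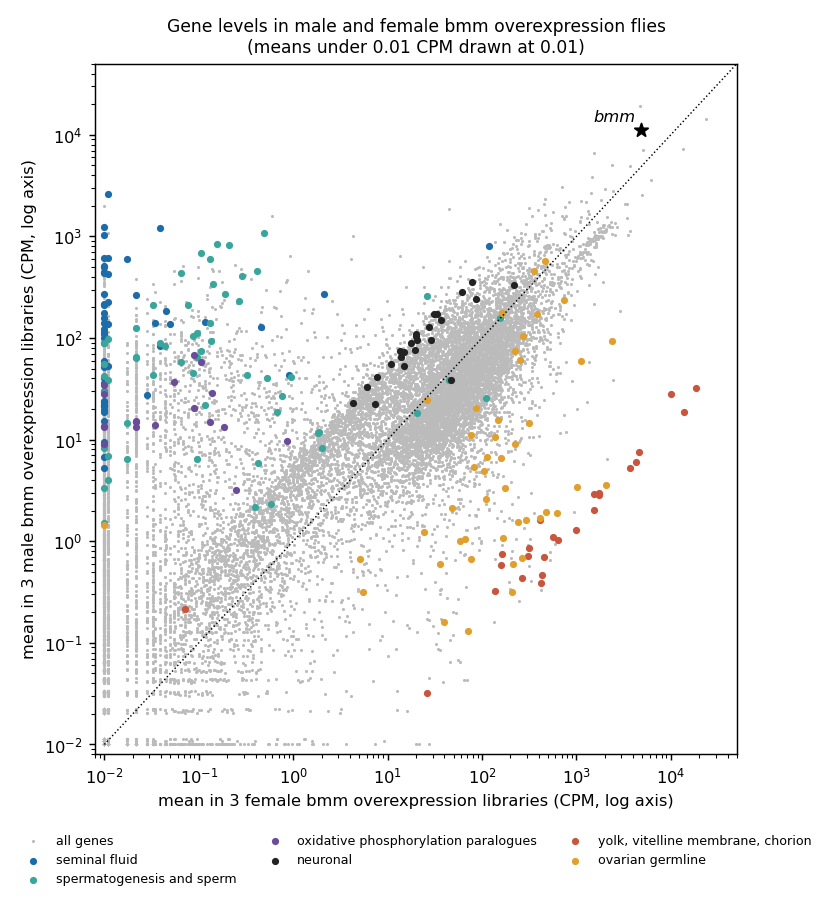
Mean level of each gene in the 3 male *bmm* overexpression libraries (vertical axis, CPM, log axis) and in the 3 female *bmm* overexpression libraries (horizontal axis, CPM, log axis), with lists of genes in colour, means under 0.01 CPM drawn at 0.01 CPM and the diagonal dotted. Seminal fluid and sperm genes lie at the upper left, most egg genes at the lower right, and most neuronal genes lie above the diagonal on this scale, where their median log2 fold change was 2.23 (0 under the neuronal scaling).

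The overexpressed gene was checked first. *bmm* (FBgn0036449, chromosome 3L from 14776496 to 14786412 in the BDGP6.54 annotation) was at 10620, 12055 and 11049 CPM in *bmm* males, against 4796, 5122 and 4455 CPM in *bmm* females. Every male library lay above every female library, with means of 11241 ± 737 CPM in *bmm* males and 4791 ± 334 CPM in *bmm* females (SD, n = 3 each; exact permutation test, two-sided, p = 0.1, which is the minimum for 3 against 3 libraries). The log2 fold change was 1.23 (SE 0.07, adjusted p = 1.5e-08, edgeR quasi-likelihood F test), but −1.0 under the neuronal scaling.

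Without overexpression *bmm* was at 474, 234 and 192 CPM in control males, against 138, 131 and 147 CPM in control females, a log2 fold change of 1.13. The sex difference with overexpression minus that in controls was 0.02 (SE 0.36), which was not past the threshold. Both genotypes thus had more *bmm* CPM in males, at levels far apart.

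*w*, the eye pigment transporter gene that is mutant in the background strain, was at 238, 241 and 237 CPM in *bmm* males, against 49.7, 52.3 and 55.2 CPM in *bmm* females. Its log2 fold change of 2.18 was −0.05 under the neuronal scaling. *Hsp70Bb*, which encodes a heat-inducible chaperone, was at 492, 581 and 555 CPM in *bmm* males, against 272.5, 280.1 and 230.5 CPM in *bmm* females, with no overlap. Its log2 fold change was 1.05 (SE 0.08), near the threshold: it was 0.95 without male replicate 2, 0.96 without female replicate 3, 0.98 with the spread of all 12 libraries and −1.18 under the neuronal scaling. *Hsp70Ba*, a near-identical copy whose reads the counting could have split or dropped, was at 6.79, 7.53 and 7.09 CPM in *bmm* males and 3.79, 5.58 and 3.31 CPM in *bmm* females, and was not called (0.75). Without female replicate 2 it was called, at 1.01, and under the neuronal scaling it was −1.49.

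Genes of dosage compensation and sex determination checked the sex labels. *roX1*, the non-coding RNA that guides the MSL complex to the male X, was at 581, 609 and 613 CPM in *bmm* males, against 2.96, 4.23 and 4.99 CPM in *bmm* females. The libraries of the sexes lay apart by a log2 fold change of 7.17 (SE 0.13), and *roX2*, the second such RNA, differed by 7.78. *msl-2*, the protein subunit that females lack because its translation is blocked, was higher in *bmm* males at the RNA level by 1.80, a direction that was lost under the neuronal scaling.

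The other 3 MSL protein genes that were called were lower in *bmm* males: *msl-1* by −2.83, *msl-3* by −1.69 and the acetyltransferase gene *mof* by −1.08. *mle*, the RNA helicase of the complex, was at 60, 67.9 and 61.7 CPM in *bmm* males and 63.8, 68.5 and 62.7 CPM in *bmm* females, which overlapped. Of the switch genes whose transcripts are spliced differently in the sexes, *dsx* was higher by 1.52 and *fru* by 1.02, both negative under the neuronal scaling, while *Sxl* (−0.56) and *tra* (−0.32) were not called. Of all 18 genes on this list, 5 (27.8%) were called higher and 6 (33.3%) lower, against 43.1% and 23% of all genes. The list's median was −0.50 beside 0.42 over all genes.

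The Y chromosome of the fly carries a small set of genes for male fertility, among them the sperm dynein heavy chains *kl-2*, *kl-3* and *kl-5*. All 11 tested of 12 listed were called higher in *bmm* males, against 43.1% of all genes, with a median of 8.91. *kl-5* was at 14, 13.7 and 14.4 CPM in *bmm* males and at 0 in each *bmm* female library. *Pp1-Y1* was at 0 in every library. In the *bmm* female libraries, 9 of the 12 had no count at all and none had more than 3 counts in a library.

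Yolk protein, vitelline membrane and chorion genes were near absence in *bmm* males. *Yp1*, a yolk protein gene of the X, was at 38.7, 26.7 and 31.4 CPM in *bmm* males, against 17510, 19887 and 18392 CPM in *bmm* females. *Yp2* was at 22, 15.1 and 19.2 CPM in *bmm* males, against 12537, 14402 and 13950 CPM in *bmm* females. Together with *Yp3* they took 0.00701% to 0.00967% of the counts of a *bmm* male library and 3.77% to 4% of those of a *bmm* female library. The log2 fold changes were −9.17, −9.50 and −8.50 for the 3 genes.

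All 9 vitelline membrane genes were called lower in *bmm* males, against 23% of all genes. Their median was −9.50 and their range was −10.08 to −8.09. *Vm26Aa*, a major vitelline membrane protein, was at 2.99, 1.45 and 1.59 CPM in *bmm* males, against 1467, 1678 and 1413 CPM in *bmm* females. *dec-1*, needed for assembly of the eggshell, was at 3.23, 2.75 and 2.63 CPM in *bmm* males and 1861, 1819 and 1546 CPM in *bmm* females. *ndl*, the protease that starts dorsoventral signalling in the egg, differed by −8.72.

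All 12 chorion genes tested of 13 listed were called lower as well (median −9.13), against 23% of all genes. The remaining gene, *Pxd*, was under the filter on low counts, with at most 0.293 CPM in either sex. *Cp36* was at 6.79, 4.23 and 4.78 CPM in *bmm* males, against 2890, 4045 and 4147 CPM in *bmm* females. The late chorion gene *Cp18* varied between female replicates, with 1054, 2860 and 1265 CPM, against 3.4, 2.66 and 2.86 CPM in *bmm* males. For *Cp16*, *Cp18* and *Cp19*, 3 neighbours of the amplified chorion cluster on 3L, female replicate 2 was the highest of the 3 female libraries.

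The same genes measured how much egg RNA each male library held. Over the 24 yolk, vitelline membrane and chorion genes, the median level in *bmm* male replicates 1, 2 and 3 was 0.206%, 0.147% and 0.16% of the mean in *bmm* females. In control male replicates 1, 2 and 3 it was 5.4%, 1.31% and 0.664% of that mean. Each *bmm* male library thus lay below each control male library. The median fold change of the 3 lists was accordingly larger in size with overexpression than in controls: −9.17 against −5.48 for yolk proteins, −9.50 against −5.57 for vitelline membrane and −9.13 against −5.42 for chorion genes. The source of the egg RNA in the control males was not tested.

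**Figure D2:**
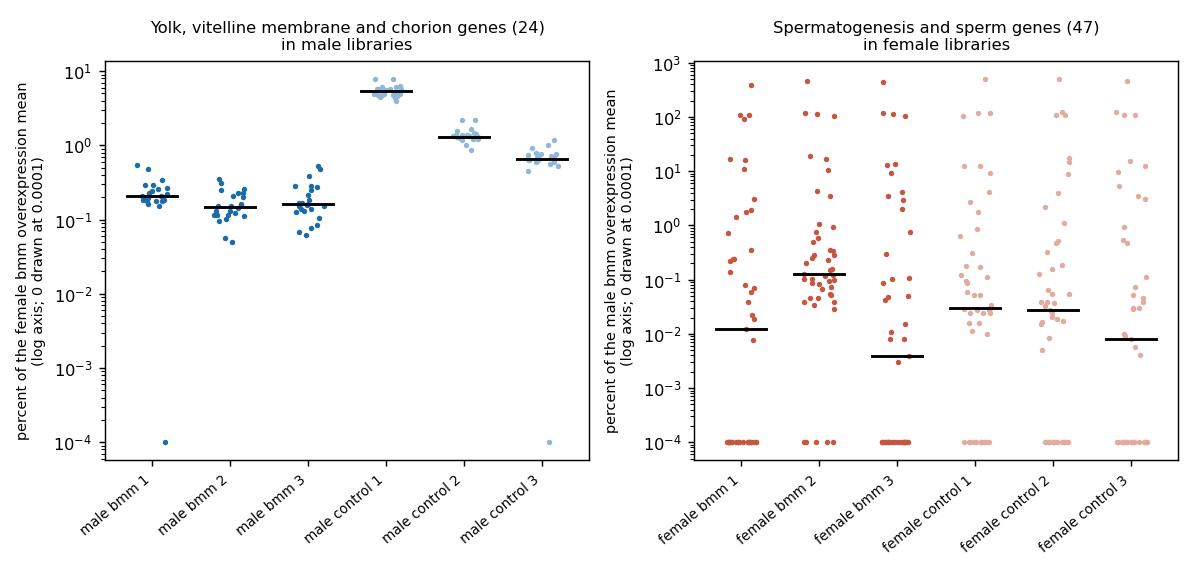
Left, level of each of 24 egg genes (yolk, vitelline membrane, chorion) in each male library, as a percent of its mean in the *bmm* overexpression females; right, level of each of 47 spermatogenesis and sperm genes in each female library, as a percent of its mean in the *bmm* overexpression males (log axes, points are genes, lines are medians, 0 drawn at 0.0001). The *bmm* male libraries hold between 0.147% and 0.206% of the egg genes, below the 3 control males, and *bmm* female replicate 2 stands above the other female libraries at 0.125% of the sperm genes.

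Maternal genes of the ovarian germ line were lower in *bmm* males, with exceptions. Of 45 tested genes, 40 (88.9%) were called lower and 1 (2.22%) higher, against 23% and 43.1% of all genes, with a median of −4.49. *osk*, which sets up the germ plasm, was at 0.471, 0.212 and 0.26 CPM in *bmm* males, against 216, 202 and 212 CPM in *bmm* females (log2 fold change −9.38). *bcd*, the anterior determinant, was at 0.168, 0.0302 and 0.195 CPM in *bmm* males, against 63.5, 79.9 and 69 CPM in *bmm* females. *yl*, the yolk receptor of the oocyte, differed by −9.17.

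Members lay on either side of the list's median. The piRNA pathway genes *aub* (−4.41), *AGO3* (−4.59), *piwi* (−5.71) and *vas* (−5.43), which act against transposons, were called lower, and *bam*, a differentiation factor of both germ lines, differed by −4.29. *orb*, an RNA-binding protein gene, was at 177, 171 and 173 CPM in *bmm* males, against 407, 378 and 371 CPM in *bmm* females (−1.15). *grk*, the ligand that patterns the oocyte, was at 25.2, 23.6 and 24.9 CPM in *bmm* males and 27, 26.6 and 24.2 CPM in *bmm* females, and was not called. *tor*, *exu* and *tud* were not called either. The called exception was *BicC*, at 1.51, 1.51 and 1.3 CPM in *bmm* males and at 0 in the *bmm* female libraries. *BicC* encodes a translational regulator known for its role in oogenesis. *cup* was at 0 in every library, and whether the counting lost reads of *BicC* or *cup* was not tested.

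All 26 tested genes of DNA replication and the cell cycle were called lower in *bmm* males, against 23% of all genes. Their median was −4.64 and their range was −6.52 to −2.08. *PCNA*, the sliding clamp of the replication fork, was at 6.42, 4.99 and 5.75 CPM in *bmm* males, against 253, 292 and 275 CPM in *bmm* females. *Mcm7*, a subunit of the replicative helicase, was at 2.72, 1.81 and 2.37 CPM in *bmm* males, against 186, 225 and 220 CPM in *bmm* females. *CycB*, the mitotic cyclin, differed by −5.98. *geminin*, an inhibitor of licensing, differed by −2.90.

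The female reproductive tract list was short. *Send1*, a protease of the sperm storage organs, was at 0.135, 0.0302 and 0.0975 CPM in *bmm* males, against 31.7, 35.4 and 36.5 CPM in *bmm* females. It was called lower with *CG32834* and *CG17239*, while *Send2* was under the filter and *hdly* was not called (0.68).

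The 10 genes with the most negative fold changes, among those with at least 10 CPM in *bmm* females and no overlap, were *CG9897*, *CG43090*, *CG6508*, *CG31926*, *Ser12*, *CG13083*, *Vml*, *CG32642*, *Vm26Ab* and *CG5568*. *CG9897* (chromosome 2R from 22985420 to 22986339) had 0 counts in each *bmm* male library and 29, 27.9 and 25.7 CPM in *bmm* females. With the limit of detection of each library in place of 0, it was at least 285-fold lower in *bmm* males. *CG31926* had 2, 1 and 1 counts in the *bmm* males and 1079, 2417 and 1760 counts in the *bmm* females, a ratio of female to male of 1533 (95% counting interval 598 to 5627). *Ser12*, a serine protease gene by its name, had 0, 1 and 0 counts in the *bmm* males and 20.4, 20.7 and 19.5 CPM in *bmm* females, a ratio of 1888 (338 to 74632). Such intervals cover counting error only, and the fitted fold changes of genes at or near 0 depend on a prior count and are no bound.

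A gene was taken as absent from 1 sex if it had at most 3 counts in each library of that sex and at least 10 CPM in each library of the other. By this rule 9 genes were absent from *bmm* males, against 0 in the same comparison of controls. They were *Ser12*, *CG13113*, *CG6508*, *CG9897*, *CG31681*, *CG31926*, *Vm26Ac*, *lncRNA:CR43836* and *CG43965*. Of these 9 genes 6 lie on chromosome arm 2L, which holds 2592 of the 13535 genes tested, and 8 are protein-coding, as are 12137 of the genes tested. *Vm26Ac*, a vitelline membrane gene, had 0, 1 and 2 counts in the *bmm* males and 591, 777 and 697 counts in the *bmm* females.

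Each of the 9 genes had more than 3 counts in some control male. *CG13113* had 0, 3 and 1 counts in the *bmm* males, against 56, 11 and 5 counts in the control males, and *CG6508* had 0, 1 and 0 counts against 51, 13 and 3 counts. Control male replicate 1, which held the most egg RNA, had the highest count of the 3 control males for all 9 genes. With 0 counts as the limit 1 gene remained, *CG9897*, and with 1 CPM in place of 10 CPM there were 31 genes. Without *bmm* male replicate 1 there were 14.

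All 54 seminal fluid genes listed, products of the accessory gland and the ejaculatory bulb and duct, were tested and called higher in *bmm* males. The share of all genes was 43.1%. The median of the 54 genes was 13.38 and their range was 2.73 to 18.12. Together they took 1.51% to 1.67% of the counts of a *bmm* male library and 0.0106% to 0.0122% of those of a *bmm* female library. Of the 54 genes, 35 were at 0 in all *bmm* female libraries, and 49 had at most 3 counts in each.

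The 10 genes with the largest positive fold changes were *CG17097*, *Acp36DE*, *EbpII*, *CG43147*, *Ebp*, *Mst57Da*, *CG9029*, *Met75Ca*, *Acp53Ea* and *Acp95EF*. *CG17097* was at 2058, 1850 and 2055 CPM in *bmm* males and at 0 in the *bmm* females, at least 16914-fold higher with 3 counts in each female library as the limit. *Acp36DE*, a protein that mated females need to store sperm, was at 1316, 1140 and 1220 CPM in *bmm* males and at 0 in *bmm* females, at least 10429-fold higher. *Ebp*, a protein of the mating plug, was at 2252, 2767 and 2906 CPM in *bmm* males and had 1 count in the *bmm* females, a ratio of 212504 (95% counting interval 38140 to 8393508).

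Other genes on the list act on the mated female. *SP*, the sex peptide that switches females to laying eggs, was at 94.6, 78.2 and 96.8 CPM in *bmm* males and at 0 in *bmm* females. *Acp26Aa*, ovulin, was at 442, 383 and 451 CPM in *bmm* males, with 1 count in *bmm* female replicate 2 and 0 in the others. *Dup99B*, a relative of the sex peptide from the ejaculatory duct, was at 257, 187 and 193 CPM in *bmm* males and at 0 in *bmm* females. *Est-6*, an esterase that other tissues also express, had the smallest difference: 813.6, 782.5 and 797.3 CPM in *bmm* males, against 106, 127 and 127 CPM in *bmm* females.

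**Figure D3:**
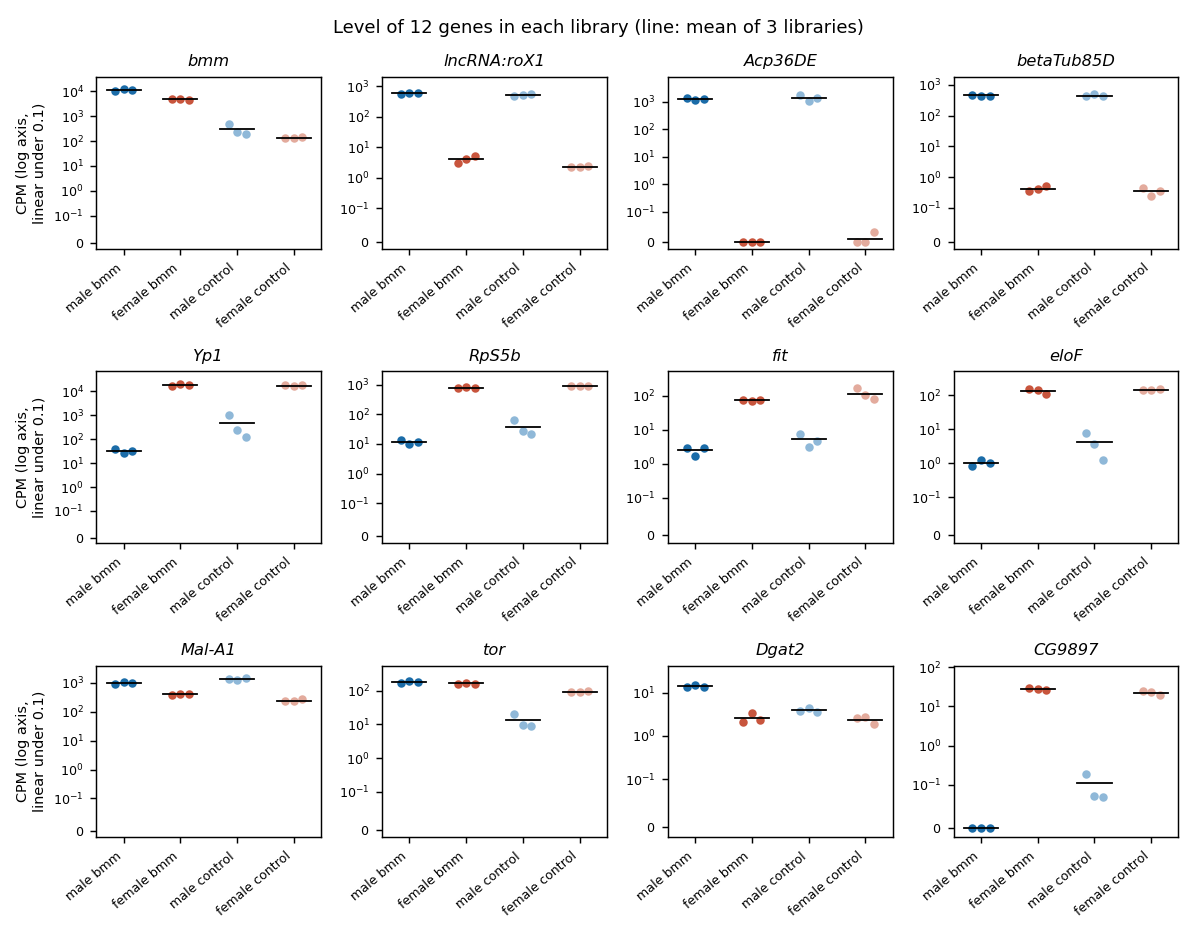
Level of 12 genes in each library (vertical axes, CPM, log above 0.1 and linear below), with male and female *bmm* overexpression libraries on the left of each panel and male and female controls on the right; points are libraries and lines are means of 3. *Acp36DE* is at 0 in all 3 *bmm* females, *CG9897* is at 0 in all 3 *bmm* males, and *tor* is at 160 to 188 CPM in all 6 *bmm* overexpression libraries but at 9 to 20.8 CPM in control males.

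Of 59 tested genes of spermatogenesis and sperm, 55 (93.2%) were called higher in *bmm* males and 1 (1.69%) lower, with a median of 9.78. The shares of all genes were 43.1% and 23%. *betaTub85D*, the testis tubulin of the sperm tail, was at 475, 441 and 448 CPM in *bmm* males, against 0.363, 0.394 and 0.492 CPM in *bmm* females. *S-Lap7*, a leucyl aminopeptidase of sperm, was at 894.2, 772.8 and 846.5 CPM in *bmm* males, against 0.104, 0.328 and 0.0328 CPM in *bmm* females. *ProtB*, a protamine that packs sperm DNA, was at 56.3, 53.7 and 56.4 CPM in *bmm* males and at 0 in *bmm* females.

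Regulators of the testis programme were on the list too. *aly*, *comr* and *nht*, which switch on the genes of the spermatocyte, were higher by 7.90, 8.47 and 9.59. *bol*, a translation regulator of meiosis, was higher by 3.30. *twe*, a Cdc25 phosphatase used in meiosis of both sexes, was the called exception, at 26.2, 26.2 and 24.1 CPM in *bmm* males, against 101, 117 and 112 CPM in *bmm* females (−2.11). *alphaTub84D*, *achi* and *sowah* were not called.

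Sperm genes were near 0 in the *bmm* females but not equally so. Over the 47 genes with at least 10 CPM in *bmm* males, the median level in *bmm* female replicates 1, 2 and 3 was 0.0124%, 0.125% and 0.00392% of the male mean, and 22, 5 and 22 of the genes had no counts. Female replicate 2 was the highest, also above the control females (0.0297%, 0.0275% and 0.00816%). *S-Lap1* was at 0.207, 1.25 and 0.0328 CPM in the *bmm* females, and *Mst84Da* was at 0, 0.263 and 0. Seminal fluid genes did not share this: their median was 0 in each female library, with 39, 38 and 40 of 51 genes at 0 in *bmm* female replicates 1, 2 and 3.

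Copies of housekeeping genes that serve the male germ line formed another male group. All 18 paralogues of oxidative phosphorylation subunits were called higher in *bmm* males, against 43.1% of all genes. Their median was 8.98 and their range was 3.46 to 12.95. *COX4L*, a copy of a cytochrome oxidase subunit, was at 69.6, 66.2 and 68.4 CPM in *bmm* males, against 0.104, 0.0985 and 0.0656 CPM in *bmm* females. Its parent *COX4* was at 311, 276 and 290 CPM in *bmm* males and 259, 299 and 281 CPM in *bmm* females, which overlapped. *SdhAL* was at 36, 32.9 and 33.9 CPM in *bmm* males and at 0 in *bmm* females. Of the 61 nuclear genes of the standard subunits that were tested, 1 (1.64%) was called higher, *ND-B8*, and none lower. The shares of all genes were 43.1% and 23%. Their median was 0.04 for the standard subunits, and it was −2.19 under the neuronal scaling and −0.05 without *bmm* male replicate 1.

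Ribosomal protein copies went both ways. *RpL22-like*, a germ-line partner of *RpL22*, was at 16.6, 16.3 and 14.3 CPM in *bmm* males, against 0, 0.722 and 0.0656 CPM in *bmm* females. *RpL10Aa* was at 33.9, 30 and 28.8 CPM in *bmm* males and at 0 in *bmm* females. *RpS5b*, the copy used in the ovary, was at 13.8, 10.3 and 11.3 CPM in *bmm* males, against 745, 821 and 749 CPM in *bmm* females (−6.03). Its ubiquitous partner *RpS5a* was at 1017, 1007 and 1000 CPM in *bmm* males and 870.8, 894.5 and 826.5 CPM in *bmm* females. Of the 10 copies tested, 7 (70%) were called higher and 1 (10%) lower, against 43.1% and 23% of all genes. The 79 standard cytosolic ribosomal protein genes took 7.05% to 7.53% of the counts in *bmm* males and 10.7% to 10.8% in *bmm* females. Of these genes 4 (5.06%) were called lower and none higher, against 23% and 43.1% of all genes, with a median of −0.76.

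By the rule on absence, 867 genes were absent from *bmm* females, against 959 from control females, and 794 of them were the same genes. Among the 867 were 46 genes of the seminal fluid list, 15 of the sperm list and 10 oxidative phosphorylation paralogues, and 837 were protein-coding. Of these genes 8.42% lay on the X, which held 15.7% of all genes tested. With 0 counts as the limit there were 439 genes and with 1 CPM in place of 10 CPM there were 1749, while leaving out *bmm* female replicate 2 gave 1025.

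On the X 34.9% of genes were called higher in *bmm* males and 30.7% lower, with a median of −0.11. The arms 2L, 2R, 3L and 3R had 42.9% to 47.6% higher and 20.4% to 23.1% lower, with medians of 0.76, 0.53, 0.44 and 0.52. Arm 2L had the largest share of genes higher by more than 5 on the log2 scale among these arms, 25.2%, against 14% on the X. On the Y 19 of 20 genes were higher, and of the 13 tested genes of the mitochondrial genome none was called. All these medians but that of the Y are negative under the neuronal scaling. Control flies had the same order of the 5 large arms, with medians of −0.15 on the X and 0.90 on 2L.

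Non-coding RNA genes were mostly higher in *bmm* males. Of 1227 tested, 960 (78.2%) were called higher and 95 lower, with a median of 5.33, while of the 12137 protein-coding genes tested 39.7% were higher and 24.5% lower. Of the 44 small nucleolar RNA genes tested, 1 (2.27%) was higher and 15 (34.1%) were lower, against 43.1% and 23% of all genes.

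Of 24 tested neuronal genes 22 (91.7%) were called higher in *bmm* males and none lower, against 43.1% and 23% of all genes, with a median of 2.23. *Syt1*, the calcium sensor of the synapse, was at 175, 172 and 174 CPM in *bmm* males, against 32.3, 34.7 and 31.9 CPM in *bmm* females, and *brp*, of the active zone, was at 108, 105 and 104 CPM against 20.1, 20 and 19.9 CPM. *Syx1A* (−0.28) and *unc-13* (0.63) were not called. The list has a median of 0 under the neuronal scaling by construction.

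Of 16 photoreceptor genes 14 (87.5%) were called higher in *bmm* males and none lower (median 1.98, but −0.26 under the neuronal scaling). The shares of all genes were 43.1% and 23%. *ninaE*, the main rhodopsin, was at 6582, 6586 and 6549 CPM in *bmm* males, against 1451, 1593 and 1517 CPM in *bmm* females. Of 24 sarcomere genes 21 (87.5%) were higher and 1 (4.17%) was lower (median 1.86, but −0.38 under the neuronal scaling). *Mhc*, the muscle myosin heavy chain, was at 943, 911 and 922 CPM in *bmm* males, against 227, 211 and 245 CPM in *bmm* females. *TpnC4*, a troponin C of flight muscle, was the called exception (−1.82), and *Tm1* was not called (−0.42).

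**Figure D4:**
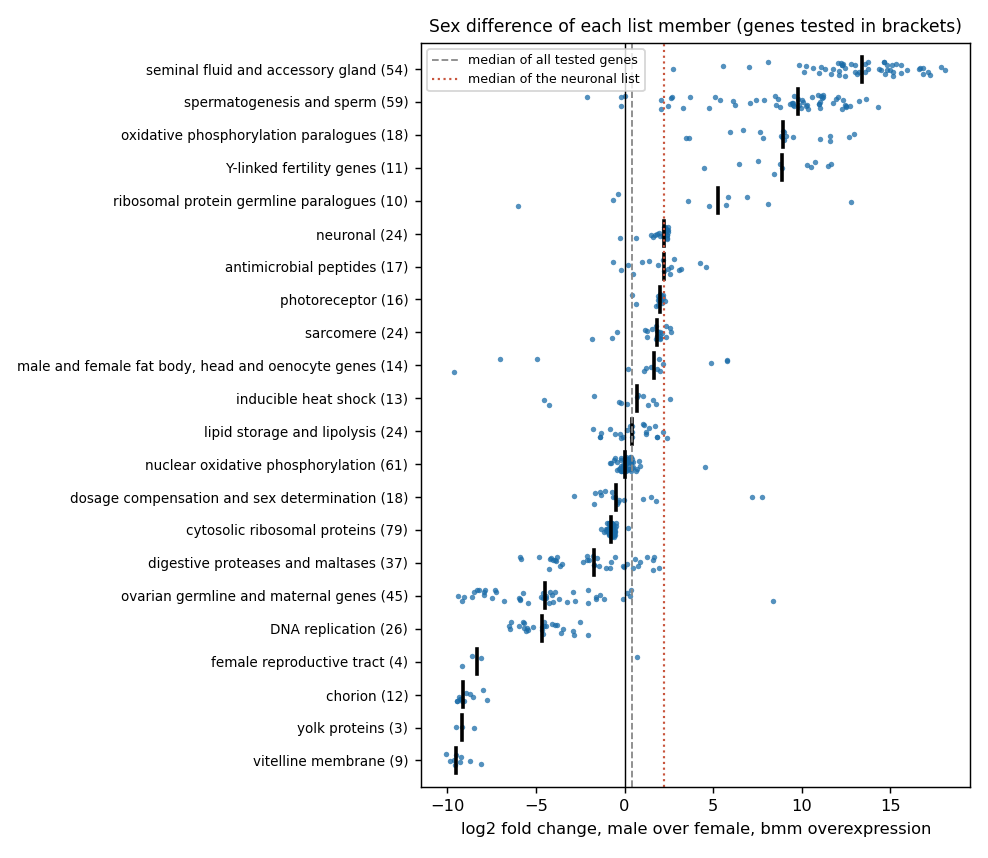
Log2 fold change, male over female *bmm* overexpression flies, of each tested member of 22 gene lists (points) and the list's median (black bar); the number of genes tested stands in brackets. The dashed line is the median of all tested genes, 0.42, and the dotted line is the median of the neuronal list, 2.23: lists whose median lies between 0 and the dotted line change sign under the neuronal scaling.

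Fat body, head and oenocyte genes with known sex bias differed in both directions. *Fad2*, the female desaturase of the courtship hydrocarbons, was at 0.639, 0.333 and 1.01 CPM in *bmm* males, against 514, 589 and 482 CPM in *bmm* females (−9.65). *eloF*, the elongase of the same pathway, was at 0.841, 1.21 and 1.04 CPM in *bmm* males, against 152, 139 and 110 CPM in *bmm* females (−7.01). *fit*, a satiety signal of the female fat body, was at 2.83, 1.75 and 2.86 CPM in *bmm* males, against 76.9, 72.2 and 76.1 CPM in *bmm* females (−4.93).

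On the male side, *Cyp4d21*, a cytochrome P450 known as sex-specific enzyme 1, was at 62.2, 70.2 and 63.3 CPM in *bmm* males, against 0.83, 1.48 and 1.08 CPM in *bmm* females (5.80). *sxe2*, a lipase of the male head, differed by 4.91 and *Obp99b*, an odorant-binding protein, by 5.81. *to*, *takeout*, which promotes male courtship, was at 69.6, 72 and 55.4 CPM in *bmm* males, against 18.6, 11.6 and 20.9 CPM in *bmm* females, a difference of 1.95 that was lost under the neuronal scaling. *Cyp4g1*, the decarbonylase that makes cuticular hydrocarbons in oenocytes, was at 16172, 20853 and 20924 CPM in *bmm* males, against 4882, 5085 and 4323 CPM in *bmm* females. The direction of *Cyp4g1* was also lost under the neuronal scaling. Of 14 genes tested on this list 10 (71.4%) were higher and 3 (21.4%) were lower, against 43.1% and 23% of all genes. The list's median of 1.67 was −0.56 under the neuronal scaling.

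Of 24 genes of lipid storage and lipolysis, *bmm* among them, 10 (41.7%) were called higher in *bmm* males and 4 (16.7%) lower, shares near the 43.1% and 23% of all genes. Their median of 0.40 was also close to that of all genes, and it was −1.83 under the neuronal scaling. *Lsd-1*, the perilipin that recruits lipases to the droplet, was at 558, 582 and 627 CPM in *bmm* males, against 185.3, 176.5 and 166.5 CPM in *bmm* females (1.74, negative under the neuronal scaling). *Lsd-2*, the perilipin that shields the droplet and is abundant in the ovary, was at 566, 612 and 567 CPM in *bmm* males, against 829, 852 and 800 CPM in *bmm* females, and was not called (−0.51). *Jabba*, which binds histones to the droplets of the egg, was at 318, 357 and 341 CPM in *bmm* males, against 828, 909 and 863 CPM in *bmm* females (−1.36).

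*FASN1*, the fatty acid synthase, was at 3601, 4127 and 3853 CPM in *bmm* males, against 1569, 1581 and 1252 CPM in *bmm* females (1.39), and *ACC*, acetyl-CoA carboxylase, differed by 1.19. *Akh*, the peptide hormone that mobilises fat, differed by 2.16 and its receptor *AkhR* by 1.83. All 4 directions were lost under the neuronal scaling, while *Seipin* (−1.78), which shapes lipid droplets, and *Agpat1* (−1.34), an acyltransferase, kept theirs.

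Of 37 digestive enzyme genes, 22 (59.5%) were called lower in *bmm* males and 5 (13.5%) higher, against 23% and 43.1% of all genes, with a median of −1.73. *Jon25Biii*, a Jonah protease of the midgut, was at 34, 38.5 and 40.2 CPM in *bmm* males, against 526, 701 and 590 CPM in *bmm* females (−4.01), and *Jon65Ai* was at 1.98, 2.3 and 1.76 CPM against 104, 142 and 109 CPM (−5.87). *alphaTry*, a trypsin, was at 880, 874 and 927 CPM in *bmm* males and 1437, 1696 and 1404 CPM in *bmm* females, and was not called (−0.76). *Mal-A1*, a maltase of the sugar-digesting midgut, was at 877, 1048 and 953 CPM in *bmm* males, against 378.5, 405.8 and 405.7 CPM in *bmm* females (1.27). *Mal-A7*, *Mal-A8*, *Mal-B1* and *Mal-B2* were the other 4 called higher, while of the remaining 5 maltases on the list *Mal-A5* was called lower (−1.73) and 4 were not called. The 5 higher fold changes were under 2.23 and negative under the neuronal scaling.

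Of 13 tested heat shock genes, 5 (38.5%) were called higher in *bmm* males and 3 (23.1%) lower, shares near the 43.1% and 23% of all genes. The median was 0.68, but −1.54 under the neuronal scaling, −0.06 among genes with at least 10 CPM and 0.40 without female replicate 3. *Hsp26* was at 40.9, 40.1 and 33.1 CPM in *bmm* males, against 780, 960 and 966 CPM in *bmm* females (−4.57), and *Hsp27* differed by −4.29: both are small chaperones that the ovary makes without heat. *Hsp83*, the Hsp90 of the fly, differed by −1.71. *Hsp68* was at 42.1, 39.7 and 36.7 CPM in *bmm* males, against 6.53, 6.99 and 6.33 CPM in *bmm* females (2.57).

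Antimicrobial peptide genes varied between the *bmm* males. Of 17 tested, 12 (70.6%) were called higher and none lower, against 43.1% and 23% of all genes, with a median of 2.22 (−0.01 under the neuronal scaling). The sexes did not overlap for 9 of the 17 tested, a count that includes genes not called. It was not made over all 13535 tested genes, so it has no share to stand beside. The median was 1.25 without male replicate 3, and 2.60 without female replicate 3. *DptA*, an effector of the Imd pathway, was at 92.8, 49 and 222.5 CPM in *bmm* males, against 5.45, 18.7 and 15.1 CPM in *bmm* females. *Drs*, an effector of the Toll pathway, was at 204, 108 and 819 CPM in *bmm* males and 212, 181 and 186 CPM in *bmm* females, which overlapped, and was not called. The list took 0.0972%, 0.0578% and 0.269% of the counts in *bmm* male replicates 1, 2 and 3, so replicate 3 was high, against 0.0319%, 0.0327% and 0.0429% in the *bmm* females.

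The same comparison in controls gave nearly the same genes. Of 13602 genes tested in controls, 6032 (44.3%) were called higher in males and 3266 (24%) lower, with a median of 0.49. Of the genes called higher in *bmm* males 5608 were also called higher in control males, which was 96.2% of the calls with overexpression and 93% of those in controls. Of the lower genes 2958 were shared, 95% and 90.6% of the calls. No gene was called in opposite directions, and the fold changes of 13391 genes had a Pearson correlation of 0.98 across genes, which are not independent replicates.

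The difference of the sex effect, with overexpression minus in controls, was tested over all 12 libraries. Of 13988 genes, 13 (0.0929%) had a positive difference past both thresholds and 156 (1.12%) a negative one, while 40 and 367 passed on the adjusted p alone. The negative count depended on single libraries. It was 55, 88 and 64 without *bmm* male replicate 1, 2 or 3, 48, 45 and 41 without *bmm* female replicate 1, 2 or 3, 290 without control male replicate 3, and 29, 26 and 69 without control female replicate 1, 2 or 3. The positive count was 7 without *bmm* female replicate 3 and 8 without control female replicate 1. Of the 156 genes 63 were called lower in *bmm* males, 55 of them lower in males of both genotypes, and 46 were called higher in *bmm* males.

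Egg genes were among those 63. All 3 yolk protein genes, 7 of 9 vitelline membrane genes and 7 of 12 chorion genes had a negative difference past both thresholds. The share of all genes was 1.12%. The median differences of the 3 lists were −3.99, −3.95 and −3.65. The egg RNA of the male libraries was measured by the genes of these same 3 lists. It was at 0.664% to 5.4% of the female level in control males and 0.147% to 0.206% in *bmm* males. The differences of these lists restate those levels and are no separate result. The group in the lower left of the plot of both sex comparisons holds these genes.

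Of the 37 digestive enzyme genes a further 7 (18.9%) had a negative difference past both thresholds, against 1.12% of all genes. All 7 were maltases. *Mal-A1* was at 877, 1048 and 953 CPM in *bmm* males, against 378.5, 405.8 and 405.7 CPM in *bmm* females, and its sex difference was 1.27 with overexpression and 2.48 in controls (difference −1.27, adjusted p = 1.3e-04, edgeR quasi-likelihood F test). *Mal-A2*, *Mal-A3*, *Mal-A4*, *Mal-A6*, *Mal-A7* and *Mal-A8* had differences of −1.20, −1.15, −1.07, −1.26, −1.59 and −1.43. *Mal-A5*, *Mal-B1* (−0.04) and *Mal-B2* (−0.48) were not called. Whether the 7 calls hold under the alternatives, which changed the number of negative differences, was not compared.

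**Figure D5:**
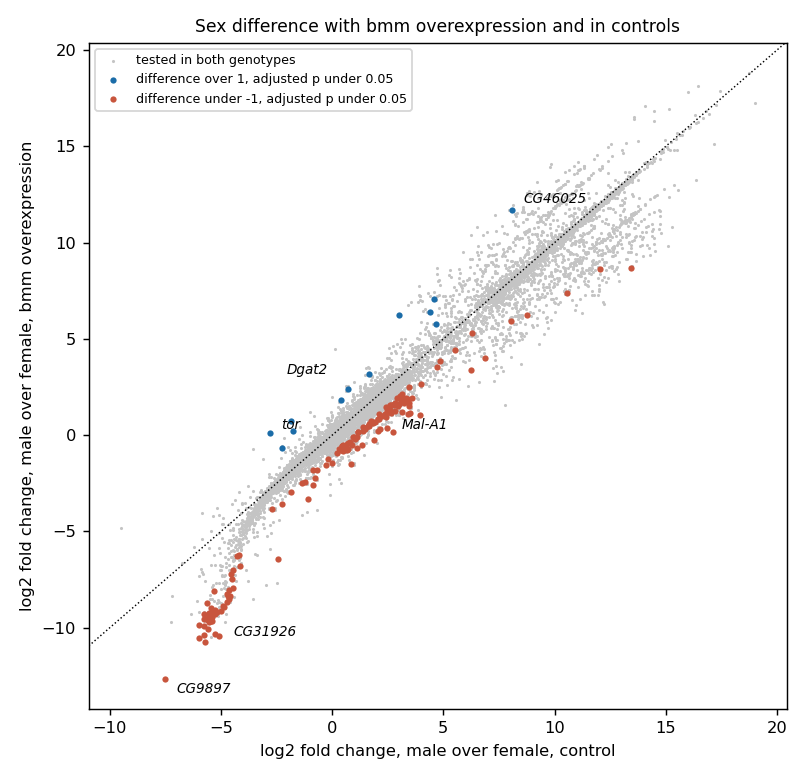
Log2 fold change, male over female, with *bmm* overexpression (vertical axis) and in controls (horizontal axis) for the 13391 genes tested in both, with equality dotted. Blue genes have a positive and red genes a negative difference past both thresholds; *tor*, *CG46025* and *Dgat2* lie above the line, and *CG9897*, *CG31926* and *Mal-A1* below it.

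Among the 13 genes with a positive difference, *tor* was not called between the sexes with overexpression (0.12), but was at −2.11 and called lower in *bmm* males under the neuronal scaling. *tor*, the receptor that patterns the ends of the embryo, was at 163, 188 and 180 CPM in *bmm* males and 160, 167 and 161 CPM in *bmm* females, against 20.8, 9.61 and 9 CPM in control males and 92.5, 89.3 and 95 CPM in control females. The sexes overlapped with overexpression and lay apart in controls, where the log2 fold change was −2.78, and the difference was 2.83 (SE 0.34, adjusted p = 0.00178, edgeR quasi-likelihood F test).

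*Dgat2*, an acyltransferase of triglyceride synthesis, was at 13.6, 15.2 and 13.2 CPM in *bmm* males, against 2.13, 3.41 and 2.3 CPM in *bmm* females. In controls it was at 3.78, 4.32 and 3.62 CPM in males and 2.57, 2.68 and 1.92 CPM in females, and the difference was 1.63 (adjusted p = 0.00609, edgeR quasi-likelihood F test). *CG1941*, the other acyltransferase gene of the lipid list with such a difference (1.36), was at 29.1, 38.8 and 30.3 CPM in *bmm* males, against 9.7, 9.22 and 9.19 CPM in *bmm* females. The other 22 genes of the lipid list, *bmm* included, had no difference past both thresholds.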

How the data were processed

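Poly(A) RNA of whole flies was sequenced in 12 libraries, 3 for each sex and genotype. The authors aligned reads with HISAT2 to BDGP6.28, marked duplicates with SAMtools, removed reads with a mapping quality under 60 and deposited whole-number counts per gene from featureCounts; tool versions and the strand setting are not given in the sources used here. The deposited CPM table holds a scaled signal, each count divided by 1 factor per library, for 14246 of the 17807 genes; the same factors gave the CPM of the other genes.

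Counts were analysed in edgeR 4.0.16 (R 4.3.3) with filterByExpr, TMM factors and the quasi-likelihood F test with Benjamini-Hochberg adjustment, which was tested on simulated counts. The simulated libraries all had the profile of the *bmm* males with few genes changed. They therefore do not check the scaling between sexes that differ in most genes. The study states edgeR exact tests for genotype; the exact test was an alternative here. The 6 *bmm* overexpression libraries, the 6 control libraries and, for the difference of the sex effects, all 12 were fitted separately. Alternatives were size factors, library size alone, the neuronal scaling, other filters, DESeq2 1.42.0, limma-trend 3.58.1, glmTreat, a replicate block and leaving out each library.

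The members and the 22 gene lists were chosen with earlier results of these data known. Genes named outside the lists were *bmm*, *w* and the *Hsp70* genes, the 10 highest and 10 lowest fold changes among called genes with no overlap and at least 10 CPM in the higher sex, and the 5 largest differences between genotypes in each direction. Of 590 list entries 4 were not found. Positions are from BDGP6.54 (Ensembl release 115), in which 17019 symbols matched directly and 724 by synonym. Counting intervals are exact 95% intervals.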

Additional observations from a re-analysis of the deposited data

Results flagged for a closer look

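For 10 genes the sex difference differed between the genotypes by the test of that difference (edgeR quasi-likelihood F test over all 12 libraries, Benjamini-Hochberg adjusted), and they are the 5 largest in each direction. The difference is the male over female log2 fold change with *bmm* overexpression minus that in controls.

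*CG31926* had a difference of −5.42 (adjusted p = 0.0445), with fold changes of −10.42 with overexpression and −5.08 in controls, whose males were at 4.28, 1.01 and 0.39 CPM. *CG9897* had a difference of −5.19 (adjusted p = 0.04), with 0 counts in each *bmm* male and 7, 2 and 2 counts in control males. This difference thus rests on at most 7 counts in a male library. *CG13083* had a difference of −5.15 (adjusted p = 0.0236). *Ser12* had a difference of −4.71 (adjusted p = 0.0319), with 0, 1 and 0 counts in *bmm* males and 22, 9 and 3 counts in control males. These 4 genes lay with the egg genes in having more counts in control males than in *bmm* males.

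*CG9550* had a difference of −4.75 (adjusted p = 0.0263) and was the one of the 5 genes that was higher in males. It was at 46.3, 40.1 and 43.5 CPM in *bmm* males with 2, 3 and 3 counts in *bmm* females, and at 41.9, 47.9 and 45.4 CPM in control males with 0 counts in control females, so the difference rests on at most 3 counts in a library. *CG46025* had a difference of 3.55 (adjusted p = 0.0159), with 59, 54.7 and 51.9 CPM in *bmm* males and 0, 0.0328 and 0 CPM in *bmm* females. In controls it was at 51.8, 59.9 and 57.7 CPM in males and 0.201, 0.244 and 0.168 CPM in females. The limit of detection was 0.0985 to 0.156 CPM in *bmm* females and 0.1003 to 0.1044 CPM in control females. The difference of *CG46025* therefore also rests on low female counts.

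*tor* had a difference of 2.83 (adjusted p = 0.00178) and *Dgat2* one of 1.63 (adjusted p = 0.00609), with the levels given above. *CG17470* had a difference of 2.44 (adjusted p = 1.2e-05): it was at 106.3, 96.1 and 103.4 CPM in *bmm* males and 0.622, 0.788 and 0.821 CPM in *bmm* females, against 115.6, 134.8 and 127.4 CPM in control males and 5.81, 4.98 and 5.26 CPM in control females. *phr6-4*, a photolyase gene, had a difference of 1.91 (adjusted p = 0.00233), with 6.29, 7.26 and 5.82 CPM in *bmm* males and 6.69, 5.32 and 5.02 CPM in *bmm* females, against 6.3, 4.69 and 4.36 CPM in control males and 19.7, 16.7 and 17.4 CPM in control females.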

How the results depend on the processing

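Scaling to the neuronal genes gave 2947 genes higher and 8053 lower in *bmm* males, 3034 higher and 7955 lower in control males, and 58 negative differences between genotypes. Under it *bmm* was at −1.0, *w* at −0.05 and *Hsp70Bb* at −1.18, and the list medians were −0.56 for fat body, head and oenocyte genes, −0.38 for sarcomere, −0.26 for photoreceptor, −1.83 for lipid, −1.54 for heat shock, −0.01 for antimicrobial peptide and −2.19 for nuclear oxidative phosphorylation genes. *Dgat2* was no longer called with overexpression (0.17). Medians of lists near 0 in females depended on the pseudocount of limma-trend. At a pseudocount of 1 they were 2.03 for Y-linked, 6.82 for seminal fluid, 5.41 for sperm and 3.90 for oxidative phosphorylation paralogue genes. At a pseudocount of 0.1 they were 4.87, 9.92, 8.42 and 6.96. With at least 10 CPM in 3 libraries there were 3269 genes higher in *bmm* males, 3422 higher in control males and 91 negative differences, and the heat shock median was −0.06; fewer genes were tested. The positive differences numbered 22 with DESeq2 and 3 with glmTreat, and the negative ones 50 and 81 with limma-trend at pseudocounts of 1 and 0.1, and 3 with glmTreat. For the other alternatives the cause was not tested. Absent genes numbered 1 (0 counts) and 31 (1 CPM) in *bmm* males, and 439 and 1749 in *bmm* females.

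Leaving out each library gave 5790 to 6037 genes higher and 3044 to 3322 lower in *bmm* males, 6064 to 6226 higher and 3273 to 3337 lower in control males, 7 to 17 positive and 26 to 290 negative differences, 1.12 to 1.28 for *bmm*, and 9 to 14 genes absent in *bmm* males and 870 to 1025 in *bmm* females. The nuclear oxidative phosphorylation median ran from −0.05 without *bmm* male replicate 1 to 0.07. For 29 named genes other than *bmm*, the alternatives were compared for the male over female fold change with *bmm* overexpression. Of 520 such values, 509 kept their direction and side of the thresholds. The differences between genotypes were not compared gene by gene in this way. All changes of sign in the 520 values came with the neuronal scaling, where *w* and *Hsp70Bb* reversed. Under it *Hsp70Ba* (−1.49), *tor* (−2.11) and *phr6-4* (−2.03), not called before, were called lower in *bmm* males. *Hsp70Ba* was also called without *bmm* female replicate 2, and the 5 lost calls were *Dgat2* and 4 of *Hsp70Bb*.

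Deviations of same-numbered male and female libraries had no positive correlation: −0.04, −0.08 and −0.06 with overexpression and −0.13, −0.12 and −0.10 in controls. Differently numbered libraries ran from 0.02 to 0.06 with overexpression and from −0.07 to 0.17 in controls. With 3 libraries in a group this check cannot exclude a batch shared by replicate number. With a replicate block 5817 genes were higher and 3109 lower in *bmm* males, and 8 positive and 40 negative differences passed.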

Other observations

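*tor* and *Dgat2* lie on chromosome arm 2R with *CG1941* between them, and *CG34216* precedes *tor*. The stretch was chosen after its values were seen. In the BDGP6.54 annotation *CG34216* spans 7703506 to 7705095, *tor* begins 87 bases after it, *CG1941* begins 688 bases after *tor*, and *Dgat2* begins 596 bases after *CG1941*. *CG34216* was at 24.1, 27.4 and 25.8 CPM in *bmm* males and 10.8, 10.3 and 8.93 CPM in *bmm* females, against 6.04, 4.88 and 5.28 CPM in control males and 4.08, 3.97 and 4.78 CPM in control females, and its sex difference differed between genotypes by 0.95 (adjusted p = 0.0144, edgeR quasi-likelihood F test). That difference is under the threshold of 1, so of these 4 genes *tor*, *CG1941* and *Dgat2* were called. The next genes on either side were not called: 0.68 for *CG1946* after *Dgat2*, −0.06 for *Gdap2* after that, and 0.10 for *CG30496* before *CG34216*. On arm 2L, *phr6-4* begins 106 bases after *CG17470*, a pair also chosen after its values were seen. Whether the neighbouring genes of either stretch are independent of each other was not tested.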
